A study of Mus musculus with 4 samples.

Results

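The genes described here build and guard the entrance of the secretory pathway: 40 genes for chaperones of the endoplasmic reticulum (ER), the unfolded protein response, ER-associated degradation, the translocon, the signal recognition particle and p24 cargo proteins. They were taken by gene symbol from the deposited table, and all 40 had 1 row each among its 54446 rows. The measurements were transcript levels in satellite cells, the muscle stem cells, taken from the hindlimb of C57BL/6 mice and kept in culture. Both groups grew in F10 medium with 10% HS. In the knockdown group (n = 2), the siRNA was directed at the long non-coding RNA LncMyoD, and the control group (n = 2) received control siRNA. RNA was harvested 48 h after siRNA treatment. The treatment text of the control samples names the same target as that of the knockdown samples, so the grouping rests on titles, descriptions and treatment tags. No label says whether replicates were separate cultures or animals, so p-values reflect no more than the spread among these 4 samples, and that spread may be technical. The siRNA sequences are not given in the labels.

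Proteins bound for secretion or for a membrane are recognised as they leave the ribosome by the signal recognition particle, docked at its receptor and threaded through the Sec61 channel. Inside the ER they are folded by HSP70 and HSP90 chaperones, lectin chaperones and disulfide isomerases, and those that fail are pulled back out and degraded. When unfolded protein builds up, the sensors Atf6, Ern1 (IRE1) and Eif2ak3 (PERK) start the unfolded protein response, which raises transcription of chaperone and degradation genes. Muscle cells use this machinery for surface receptors, fusion proteins and matrix, and unfolded protein signalling is known to accompany myoblast differentiation. Gene-level values cannot show the splicing of Xbp1 by Ern1, or any change in protein.

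Levels are FPKM (fragments per kilobase, scaled to library size), a per-length scale on which genes can be compared. The 4 libraries were of like depth: 36.7 to 41.1 reads of 150 nt stood behind each FPKM and kilobase, and 10751 to 11090 rows per library reached 1 FPKM. Markers of the muscle lineage were high (7 of 8 at 1 FPKM or more), with a summed level of 5008 and 5585 FPKM in the knockdown libraries and 6365 to 6713 in control. Pax7, the satellite cell factor, lay between 0.625 and 1.40 FPKM. Myog, a factor of differentiating myoblasts, had 3406 and 2793 FPKM in the knockdown libraries and 4196 and 3931 in control. Myog made up most of the summed level of the muscle lineage markers. Fibro-adipogenic markers (2 of 8 at 1 FPKM, nearly all of it Islr) summed to 33.3 and 46.0 FPKM in the knockdown libraries against 55.9 and 63.6 in control, and Pdgfra was listed at 0 in 3 libraries. Smooth muscle and pericyte markers (3 of 6, nearly all of it Acta2) summed to 2578 and 2673 against 3025 and 3169. In the same list Myh11, Rgs5 and Pdgfrb averaged only 0.011, 0.043 and 0.36 FPKM, so this sum describes Acta2 and not a cell type. Endothelial markers (2 of 6) summed to 5.86 to 8.20 FPKM and macrophage markers (1 of 6) to 2.27 to 3.40, with Kdr, Adgre1 and Ptprc listed at 0 in all libraries. Schwann cell markers (1 of 5, Pmp22) summed to 19.1 in knockdown replicate 1 and to 42.4 to 47.0 in the other 3 libraries, with S100b listed at 0. The part of these markers in the results below was not tested. In bulk RNA, fewer cells of a type and less RNA per cell cannot be told apart. No row was named LncMyoD (0 of 54446), so its knockdown was not analysed here.

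Together the 40 genes took 1.61% to 1.66% of all FPKM in each library. Levels spanned from 832 FPKM for Hspa5, averaged over the 4 libraries, down to about 1 FPKM for Ern1, and 15 of the 40 reached 100 FPKM. One of the 40, Ern1, stayed under the filter of a mean of 1 FPKM, and the other 39 passed it. A difference below is the knockdown mean minus the control mean of log2(FPKM + 1), a scale that compresses differences of low genes. They were tested by limma over all 10900 genes that passed, with Benjamini-Hochberg adjustment. Of the 39, 0 were called at an adjusted p of 0.05 in either direction. The background was 0.00917% of all genes called higher and 0.0459% called lower, so calls were rare throughout the table. The median difference of the 39 was 0.01, against 0.03 over all genes tested, with 20 positive and 19 negative. A difference smaller than 0.2 on the log2 scale was seen in 31 of 39, or 79.5%, against 61.4% of all genes, which also had lower levels (median 7.02 FPKM against 67.9).

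**Figure D1:**
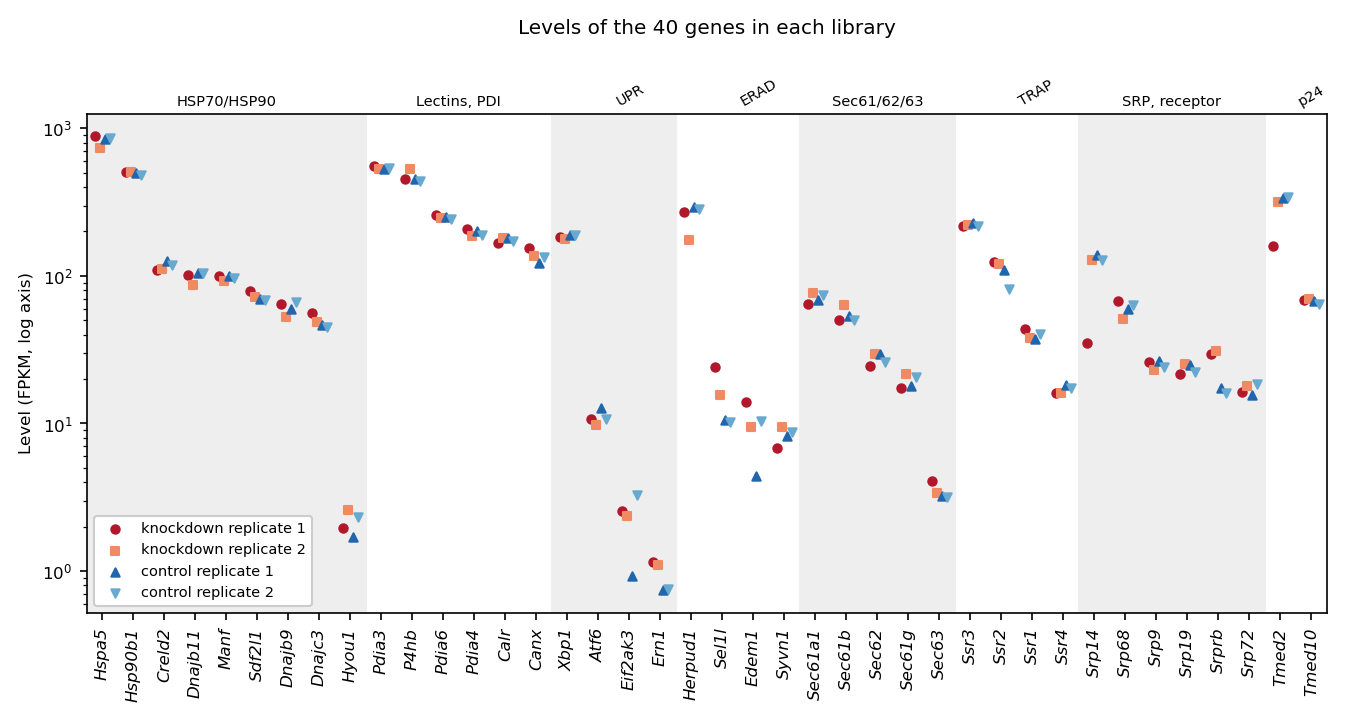
Level of each of the 40 genes (FPKM, log axis) in each library, ordered by role and by mean level within a role; red and orange points are the knockdown libraries, blue points the controls. Most genes have their 4 points close together, while Srp14 and Tmed2 have 1 low knockdown point and Edem1 and Eif2ak3 have 1 low control point.

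At an unadjusted p under 0.05, 2 of the 39 were higher in knockdown (5.13%, background 4.39%) and 0 were lower (background 2.70%). Both knockdown libraries lay above both controls in 9 genes (23.1%, background 22.1%) and below both in 8 (20.5%, background 16.3%). These shares are near the background, so they are not a result about these 40 genes. The genes with the lowest p were Srprb, the membrane-anchored subunit of the signal recognition receptor, and Sel1l, the adaptor of an ER ubiquitin ligase.

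**Figure D2:**
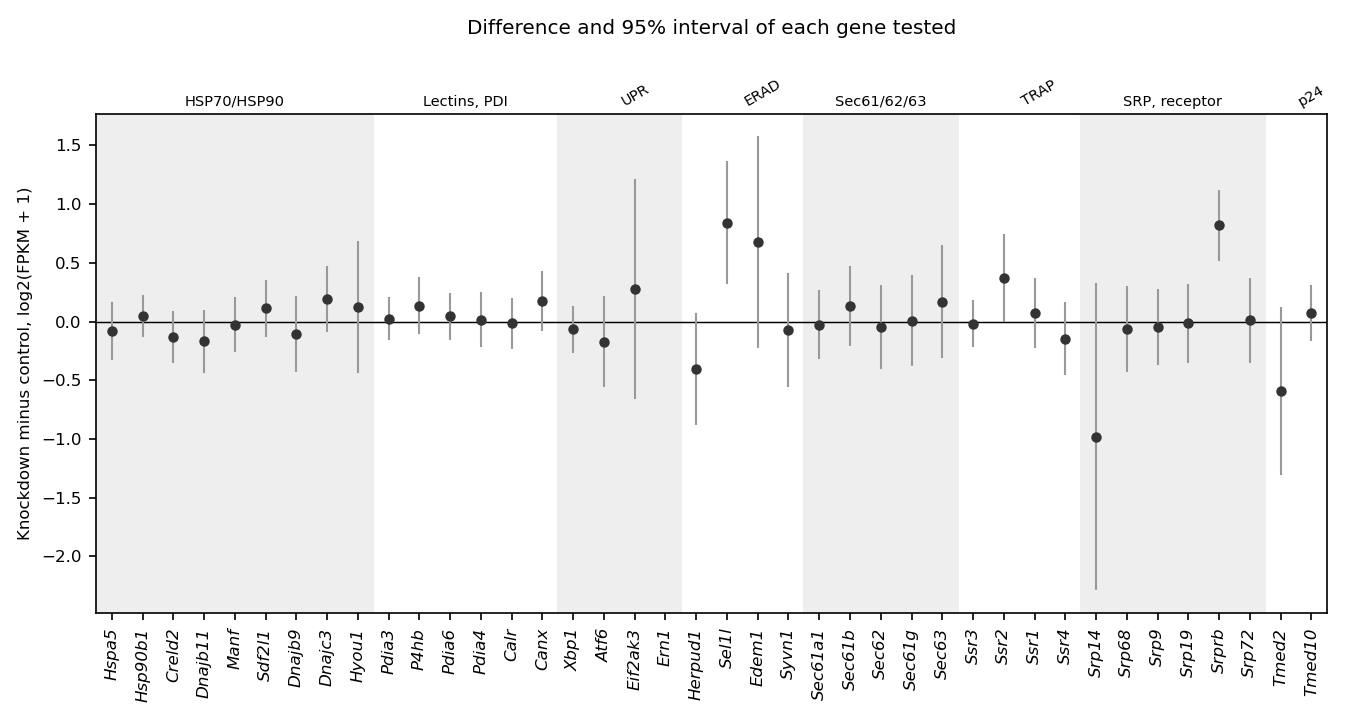
Difference between knockdown and control for the 39 genes tested (log2(FPKM + 1), points) with 95% intervals from limma (bars), in the order of the plot of levels; Ern1 was below the filter. The intervals of Srprb and Sel1l lie above 0, and those of the other 37 include it.

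The luminal HSP70 and HSP90 chaperones and their helpers, 9 genes, had a median difference of -0.03, and each of the 9 lay within 0.2 of no difference. Hspa5, which codes for BiP, the HSP70 of the ER, was the most abundant gene of the 40, with 882 and 738 FPKM in the knockdown libraries and 851 and 857 in control. Knockdown replicate 1 was the highest of the 4 libraries and knockdown replicate 2 the lowest, so the groups overlapped. The difference was -0.08 with a 95% interval of -0.33 to 0.17 (limma adjusted p 0.893), and it was 0.05 without knockdown replicate 2 and 0.02 after quantile normalization. Hsp90b1, the HSP90 of the ER (GRP94), had 504 and 507 FPKM against 494 and 484. Its knockdown libraries were both above the controls, by little: the difference was 0.05 (95% interval -0.13 to 0.23, limma adjusted p 0.917). Its exons overlap the rows of Gm25745 and 1810014B01Rik, and summed with both the difference was 0.03.

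The J-domain proteins, which load clients onto BiP, had differences of either sign, and their 95% intervals all included 0. Dnajc3, also known as P58IPK, had 56.4 and 48.8 FPKM in the knockdown libraries against 46.4 and 45.3 in control, with no overlap and a difference of 0.19 ± 0.12 (SE; limma adjusted p 0.764). Dnajb11 had 101 and 86.2 FPKM against 105.1 and 105.0, also without overlap, and a difference of -0.17 ± 0.11 (SE; limma adjusted p 0.771). Dnajb9 had 64.9 and 53.0 FPKM against 59.9 and 66.4, and its groups overlapped. Among the other helpers, Sdf2l1, a partner of J-domain proteins, had 78.6 and 71.9 FPKM against 70.2 and 68.8, a difference of 0.11. Creld2, a stress-inducible protein of the lumen, had 110.0 and 112 FPKM against 126 and 118, a difference of -0.13. Both pairs of groups were apart, and the limma adjusted p was 0.841 for Sdf2l1 and 0.784 for Creld2. Manf, a secreted survival factor kept in the ER by BiP, had a difference of -0.03 (95% interval -0.26 to 0.21). Hyou1, the large HSP70-like exchange factor of BiP, was low for this group at 1.70 to 2.58 FPKM, with both groups overlapping and a 95% interval of -0.44 to 0.69.

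Promoters of several of these genes carry the ER stress element, the known binding site through which Atf6, with NF-Y, raises chaperone transcription. The element was searched as CCAAT, any 9 bases and then CCACG, on both strands of 300-base windows, from 250 bases before to 50 after the start of each gene in RefSeq (GRCm38.p6). Windows were at hand for 32 of the 40 genes (not for Atf6, Hyou1, Manf, Sec61a1, Srp19, Srp68, Ssr2 and Tmed2). It was found in 8 of 32 (25.0%) and in 37 of all 27025 genes with a window (0.137%), so 21.6% of all genes with this match belong to the 40. The element was chosen for its known role at chaperone genes, so these shares are a description and not a test. The stretches around the match are shown because they are the sequence these chaperone and degradation genes share, with the fixed letters of the element in capitals. Each is printed 5′ to 3′ on the strand of the gene; CGTGG followed by ATTGG is the element on the opposite strand.
Hspa5, chr2:34772005-34772063, plus strand: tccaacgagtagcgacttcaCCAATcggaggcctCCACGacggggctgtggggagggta
Hsp90b1 far match, chr10:86705618-86705676, minus strand: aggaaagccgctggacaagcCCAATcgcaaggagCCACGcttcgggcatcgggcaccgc
Hsp90b1 near match, chr10:86705513-86705571, minus strand: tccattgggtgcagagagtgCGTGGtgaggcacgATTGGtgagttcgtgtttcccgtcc
Dnajc3, chr14:118937807-118937865, plus strand: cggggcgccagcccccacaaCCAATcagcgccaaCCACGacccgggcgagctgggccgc
Creld2, chr15:88819500-88819558, plus strand: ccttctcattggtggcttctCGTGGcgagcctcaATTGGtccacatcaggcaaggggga
Pdia6, chr12:17266471-17266529, plus strand: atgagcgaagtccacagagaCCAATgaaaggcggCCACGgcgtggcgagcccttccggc
Calr, chr8:84847055-84847113, minus strand: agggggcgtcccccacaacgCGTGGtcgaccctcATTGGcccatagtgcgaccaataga
Canx, chr11:50325780-50325838, minus strand: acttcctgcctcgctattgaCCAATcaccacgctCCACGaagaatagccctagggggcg
Syvn1, chr19:6046512-6046570, plus strand: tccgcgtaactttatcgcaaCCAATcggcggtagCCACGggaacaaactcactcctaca

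The 8 genes with this element ranged in level from 8.32 FPKM for Syvn1 to 832 for Hspa5. Their differences ran from -0.13 for Creld2 to 0.19 for Dnajc3, with 4 positive and 4 negative and a median of 0.01. The 23 tested genes with a window and no match also had a median of 0.01. In these libraries the genes that share the element therefore had no common direction. The related element ERSE-II, searched as ATTGG, any 1 base and then CCACG, on both strands, was found in 2 of 32 (6.25%) and in 12 of all genes (0.0444%). Both genes were lowest in knockdown replicate 2, as were 10 of the 39 tested in all and 21.7% of all genes. A link between the element and these values was not tested. The stretches are printed here for both genes, with the fixed letters of the element in capitals.
Herpud1, chr8:94386357-94386407, plus strand: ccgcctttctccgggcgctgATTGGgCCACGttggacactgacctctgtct
Dnajb11, chr16:22857843-22857871, plus strand: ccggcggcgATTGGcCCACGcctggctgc
The match in Dnajb11 lies 7 to 17 bases after the RefSeq start, and that in Herpud1 begins 52 bases before it. The letters TGACGTGG, the core of a site bound by Xbp1 and Atf6, were in 0 of the 32 windows and in 193 of all genes (0.714%), which says only that these letters are not in these windows.

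The lectin chaperones and disulfide isomerases, 6 genes, were high and even, with a median difference of 0.03 and each within 0.2. Pdia3 (ERp57), the isomerase that works with both lectins, had 555 and 531 FPKM in the knockdown libraries and 527 and 539 in control, a 95% interval of -0.16 to 0.21. P4hb, protein disulfide isomerase itself and a subunit of collagen prolyl hydroxylase, had 453 and 532 FPKM against 455 and 438. Knockdown replicate 1 lay between the controls and only replicate 2 above them, with a difference of 0.14 ± 0.10 (SE; limma adjusted p 0.806) that was 0.02 without knockdown replicate 2. Canx, the membrane lectin calnexin, had 154 and 136 FPKM against 123 and 134. Its groups did not overlap, though knockdown replicate 2 and control replicate 2 were close, and the difference was 0.17 ± 0.10 (SE; limma adjusted p 0.760). Calr, its soluble relative calreticulin, had 168 and 181 FPKM against 181 and 172, with overlapping groups. The other isomerases, Pdia4 and Pdia6, had differences of 0.01 and 0.04, with 95% intervals within -0.22 and 0.25.

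Per length, the 3 sensors of the unfolded protein response stood below their transcription factor Xbp1 in every library. Xbp1 had 182 and 179 FPKM in the knockdown libraries and 189 and 189 in control. All 4 libraries were close, with both knockdown values below both controls, and the difference was -0.07 (95% interval -0.26 to 0.13, limma adjusted p 0.890). Atf6, the sensor cut free in the Golgi, had 10.7 and 9.81 FPKM against 12.7 and 10.8. Its groups were apart by a narrow margin, with a difference of -0.17 ± 0.16 (SE; limma adjusted p 0.850). Eif2ak3, the kinase that slows translation, had 2.55 and 2.37 FPKM against 0.927 and 3.25. The controls lay on either side of the knockdown libraries, so the sign of its difference of 0.27 hangs on them: it was -0.30 without control replicate 1 and 0.84 without control replicate 2 (limma adjusted p 0.908 with all libraries). Ern1, the kinase and RNase that splices Xbp1, had 1.16 and 1.09 FPKM against 0.738 and 0.757. Both knockdown libraries were above both controls, but it was below the filter and was not tested.

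The 4 genes of ER-associated degradation had differences from -0.40 to 0.84. Sel1l (chromosome 12, 91806043 to 91849157, minus strand, GRCm38) had 24.01 and 15.6 FPKM in the knockdown libraries and 10.6 and 10.2 in control. Both knockdown libraries were above both controls, and they were further from each other than the controls were. The difference was 0.84 ± 0.22 (SE), with an unadjusted p of 0.00769 and a limma adjusted p of 0.600. It was 0.55 without knockdown replicate 1 and 1.14 without knockdown replicate 2. Syvn1, the ubiquitin ligase HRD1 that Sel1l holds in place, had 6.78 and 9.53 FPKM against 8.28 and 8.71, a difference of -0.07 (95% interval -0.55 to 0.42). Its knockdown libraries lay on either side of the controls. Whether Sel1l and Syvn1 differed in their response was not tested.

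Edem1, a lectin that hands misfolded glycoproteins to degradation, had 13.9 and 9.51 FPKM in the knockdown libraries against 4.42 and 10.3 in control. Control replicate 1 was the low library, and the groups overlapped. The difference of 0.68 ± 0.37 (SE; limma adjusted p 0.737) was 0.14 without control replicate 1 and 1.21 without control replicate 2, and it was 0.42 without knockdown replicate 1. Herpud1 (chromosome 8, 94386438 to 94395377, plus strand), a stress-induced scaffold of the degradation complex, had 269.5 and 174 FPKM against 291 and 283. Here knockdown replicate 2 was the low library. The difference of -0.40 ± 0.20 (SE; limma adjusted p 0.717) moved to -0.09 without knockdown replicate 2 and to -0.72 without knockdown replicate 1, where the adjusted p was 0.0618.

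**Figure D3:**
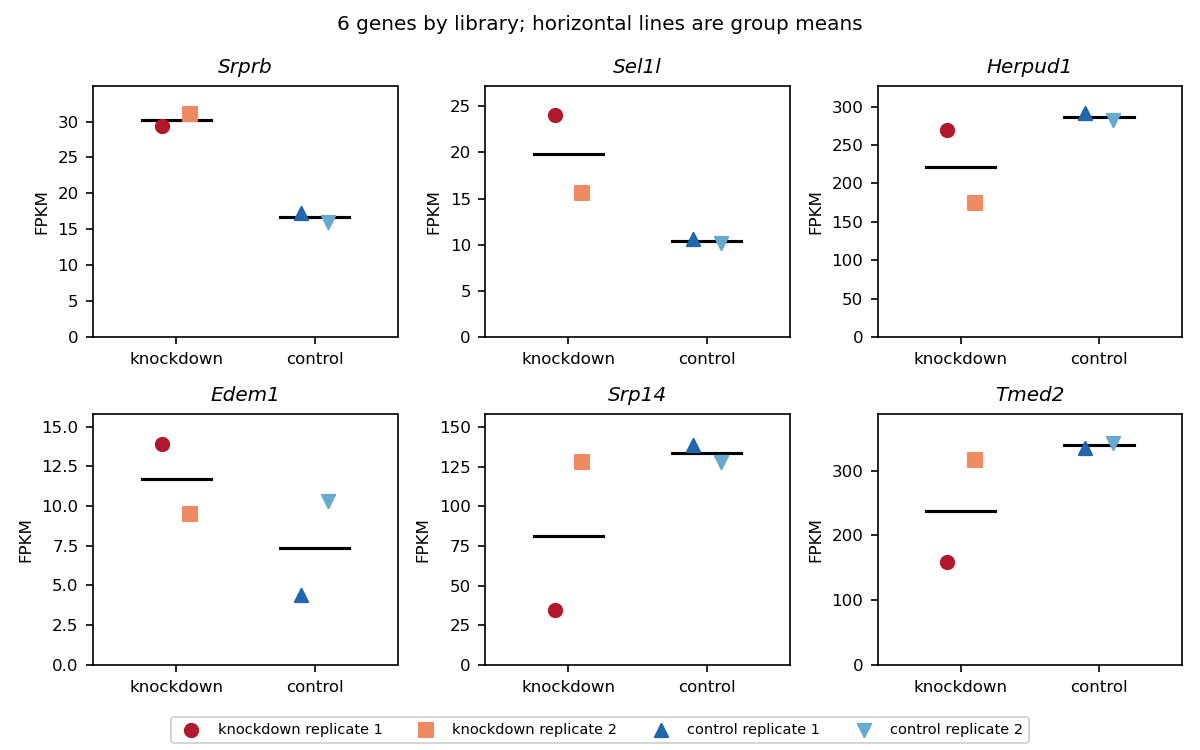
Level (FPKM, linear axis from 0) of 6 genes in each library, with group means as horizontal lines. Srprb and Sel1l have both knockdown points above both controls, Herpud1 is low in knockdown replicate 2, Edem1 is low in control replicate 1, and Srp14 and Tmed2 are low in knockdown replicate 1.

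The Sec61 channel and its partners, 5 genes, had a median difference of 0.01 and each within 0.2. Sec61a1, which forms the pore, had 64.5 and 76.3 FPKM in the knockdown libraries and 68.6 and 74.4 in control, and its 95% interval was -0.32 to 0.27. Sec61b, a small channel subunit, had 50.4 and 63.7 FPKM against 53.3 and 49.9, with a difference of 0.13 ± 0.14 (SE; limma adjusted p 0.868) that was -0.03 without knockdown replicate 2 and 0.30 without knockdown replicate 1. Sec61g, the other small subunit, stood at 17.3 to 21.5 FPKM, and the row Gm10177, which shares long stretches of its sequence, at 18.7 to 21.9. How reads were divided between these rows is not given in the sources used here, so the level of Sec61g is uncertain, and its difference was 0.01 alone and -0.02 when summed with such rows. Of the helpers of post-translational transport, Sec62 had 24.4 and 29.7 FPKM against 29.8 and 26.1. Sec63, its partner and a J-domain protein, was the lowest at 4.09 and 3.37 FPKM against 3.22 and 3.17. Its groups did not overlap, but the difference of 0.17 had a 95% interval of -0.31 to 0.65 (limma adjusted p 0.888).

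Subunits of the translocon-associated TRAP complex, which helps selected signal peptides open the channel, stood at unlike levels per length. Ssr3 had 217 to 227 FPKM over all libraries, Ssr2 81.0 to 124, Ssr1 37.1 to 43.5 and Ssr4 16.0 to 18.3, and neighbours in this order did not overlap. Ssr2 had 124 and 121 FPKM in the knockdown libraries and 110.2 and 81.0 in control. Both controls were below both knockdown libraries, and control replicate 2 was the lowest by far. The difference was 0.37 ± 0.15 (SE), with an unadjusted p of 0.0506 and a limma adjusted p of 0.698. It was 0.59 without control replicate 1 and 0.15 without control replicate 2. Ssr2 shares sequence with the rows of the pseudogene Gm10704 and of the protein-coding gene Rtraf, and summed with both the difference was 0.26. That sum takes in the whole Rtraf row, at 52.5 to 65.1 FPKM, so it is not a corrected value for Ssr2. Ssr4 had 16.0 and 16.1 FPKM against 18.3 and 17.5, below both controls, with a difference of -0.14 ± 0.13 (SE; limma adjusted p 0.838). Ssr1 and Ssr3 had differences of 0.07 and -0.02.

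Srprb (chromosome 9, 103188032 to 103202137, minus strand) codes for the GTPase that anchors the signal recognition receptor in the ER membrane. It had 29.4 and 31.0 FPKM in the knockdown libraries and 17.3 and 16.1 in control. Replicates were close within each group and the groups were far apart, with a ratio of means of 1.81. The difference was 0.82 ± 0.12 (SE), with a 95% interval of 0.52 to 1.12 and an unadjusted p of 0.000535. Over all genes the limma adjusted p was 0.265, so it was not called. Leaving out each library in turn gave differences between 0.77 and 0.87, and over all alternatives the adjusted p ranged from 0.199 to 0.763. The row Gm20425, which shares 888 exonic bases with it, was listed at 0 in all libraries. Srpr, the other receptor subunit and the one that meets the particle, was looked at after the values of Srprb were seen and had 86.2 and 94.7 FPKM against 88.0 and 87.9, with overlapping groups. Its limma adjusted p was 0.952. No test of Srprb against Srpr was made.

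Of the proteins of the particle itself, Srp14 (chromosome 2, 118475850 to 118479711, minus strand), which with Srp9 forms the part that pauses translation, was unusual in 1 library. Its level was 35.0 FPKM in the first knockdown library and 128 in the other, and the controls had 139 and 128. Knockdown replicate 2 lay beside control replicate 2, just below it, so only knockdown replicate 1 was low. The difference of -0.98 ± 0.54 (SE; limma adjusted p 0.739) became -0.06 without knockdown replicate 1. Without knockdown replicate 2 it was -1.90 with an adjusted p of 0.0353, a call that assumes that the lone sample varies like the controls. On the shortest annotated transcript, the low value would correspond to about 694 reads, which are reads of amplified cDNA and not molecules. The gap of 1.84 between the knockdown libraries was exceeded by 0.431% of all genes tested. No other row shares exonic bases with Srp14.

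Srp9, the partner of Srp14, had 26.1 and 23.0 FPKM in the knockdown libraries and 26.7 and 24.1 in control, with no low value in knockdown replicate 1. Its sequence is shared with the pseudogene row Gm13736, at 23.1 to 29.8 FPKM, so its level is uncertain, and the summed difference was -0.18 against -0.05 alone. The rest of the particle had overlapping groups. Srp68 had 67.6 and 51.2 FPKM against 59.9 and 63.1, its partner Srp72 16.4 and 18.0 against 15.7 and 18.6, and Srp19, which helps to assemble the particle, 21.8 and 25.3 against 25.1 and 22.4. Their differences were -0.06, 0.01 and -0.01.

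The p24 proteins Tmed2 and Tmed10 pair with each other and sort cargo into vesicles between ER and Golgi. Tmed2 (chromosome 5, 124540695 to 124550506, plus strand) had 159 FPKM in knockdown replicate 1, 317 in knockdown replicate 2, and 336 and 343 in control. As for Srp14, knockdown replicate 1 was the low library, while knockdown replicate 2 was close to the controls. The difference of -0.59 ± 0.29 (SE; limma adjusted p 0.717) was -0.10 without knockdown replicate 1 and -1.09 without knockdown replicate 2, where the adjusted p was 0.0353. Tmed2 shares long stretches of sequence with the pseudogene row Gm10698, which had 188 FPKM in knockdown replicate 1 and 165 to 170.1 in the other libraries. Summed with this row and that of Gm7318, knockdown replicate 1 had 348 FPKM, knockdown replicate 2 486, and the controls 501 and 515, a difference of -0.30 (limma adjusted p 0.716). Tmed10 had 68.9 and 70.3 FPKM against 67.8 and 64.5, and the row Tmed10-ps stood at 59.9 to 68.5. The groups of Tmed10 did not overlap, with a difference of 0.07 and a 95% interval of -0.16 to 0.31 (limma adjusted p 0.902).

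**Figure D4:**
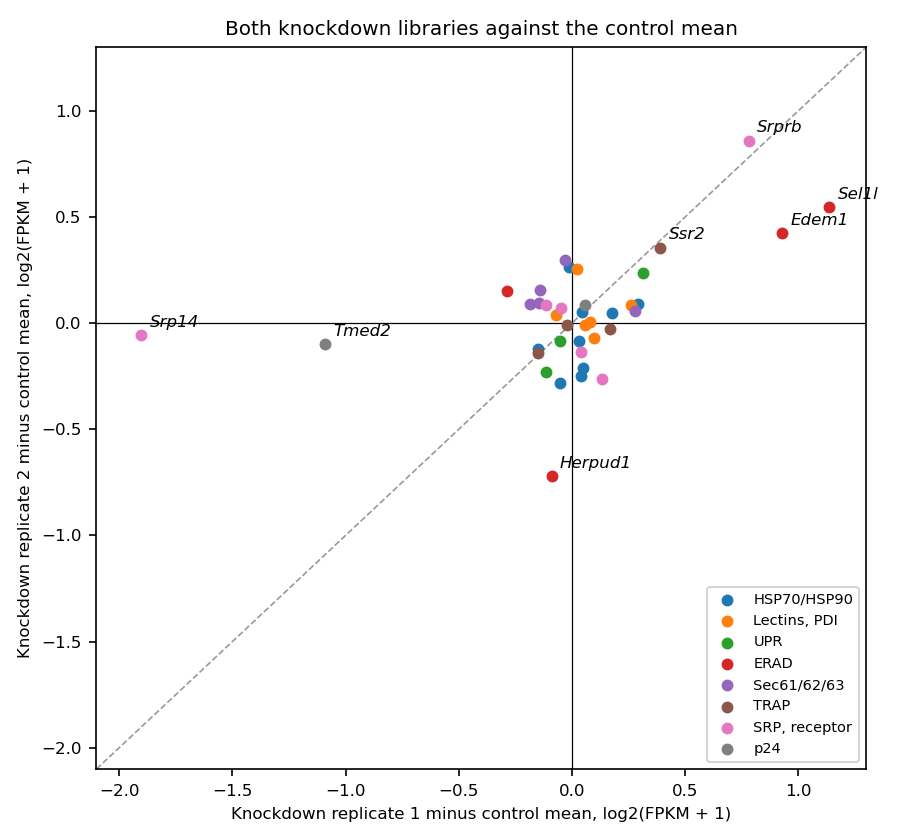
Difference of knockdown replicate 1 (x axis) and of knockdown replicate 2 (y axis) from the control mean, on the log2(FPKM + 1) scale, for the 39 genes tested, coloured by role; the dashed line marks equal values. Srprb lies near that line at 0.78 and 0.86, Srp14 and Tmed2 are far from 0 only on the x axis, and Herpud1 only on the y axis.

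Srprb, Sel1l, Edem1 and Ssr2 were above the control mean in both knockdown libraries, whereas Srp14 and Tmed2 were well below it in replicate 1 and Herpud1 in replicate 2. Over the 39 genes knockdown replicate 1 had a median difference of 0.03 and knockdown replicate 2 of 0.05. A gap of more than 0.5 between the knockdown libraries was seen in 5 of 39 (12.8%), namely Herpud1, Edem1, Sel1l, Srp14 and Tmed2, against 16.7% of all genes tested. Between the controls it was seen in 2 of 39 (5.13%), Eif2ak3 and Edem1, against 11.2% of all genes. Both measures use the same libraries as the differences above, since each axis is set against the same controls.

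Further genes of the pathway were read from 6 lists, chosen with earlier results of these data known. Of their 124 tested rows, 0 were called by limma in either direction, and 5 were higher at an unadjusted p under 0.05 (4.03%, background 4.39%), while 1 was lower (0.806%, background 2.70%). Both knockdown libraries lay above both controls in 27 (21.8%) and below in 14 (11.3%), near or under the background of 22.1% and 16.3%. Of the differences, 66 were positive and 58 negative, with a median of 0.02, and over all genes tested 54.8% were positive. Genes of the oligosaccharyltransferase, which adds sugar chains at the translocon, and of the signal peptidase had 13 of 16 positive and a median of 0.09. Sec11a, a catalytic subunit of the signal peptidase, had 30.2 and 28.7 FPKM against 22.3 and 20.7, with a difference of 0.44 ± 0.12 (SE; limma adjusted p 0.607). Stt3b, a catalytic subunit of the transferase, had 0.28 and was low in control replicate 1 only (26.3 FPKM against 38.6 to 41.7 in the others), so that it was -0.03 without that library. Other signal recognition and membrane insertion genes had a median of -0.01 over 19, with Emc1 and Emc10, of the membrane insertase complex, at 0.33 and -0.24.

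Other folding enzymes had a median of 0.08 over 25, and 8 of them had both knockdown libraries above both controls and 1 below (background 22.1% and 16.3%). Ero1lb, an oxidase that recharges disulfide isomerases, had 3.36 and 3.77 FPKM against 1.47 and 1.41, with a difference of 0.90 ± 0.20 (SE; limma adjusted p 0.523). Hspa13, an HSP70-like protein of the microsomal lumen, had 10.9 and 10.6 FPKM against 6.49 and 6.70, with a difference of 0.63 ± 0.15 (SE; limma adjusted p 0.566). In both genes the replicates lay close together and the groups were apart. Other degradation genes had a median of -0.01 over 20, with Selenos at -0.22 and Faf2 at 0.31. The ATF4 and CHOP branch, which follows Eif2ak3, had 11 of 13 negative and a median of -0.15, where 4928 of all 10900 genes tested were negative. In 10 of the 13 the groups overlapped, as in 6707 of all 10900 genes. Both knockdown libraries lay below both controls in 3 (background 16.3%) and above both in 0 (background 22.1%). Only 1 gene, Asns, was lower at an unadjusted limma p under 0.05 (background 2.70%). The activity of Eif2ak3 was not tested. Asns, asparagine synthetase, had 166 and 159 FPKM against 241 and 201 (limma adjusted p 0.595), and Trib3 had -0.38 (limma adjusted p 0.698). Vesicle exit and retrieval genes had a median of 0.01 over 31, with the coat subunit Sec24d at 0.35 and the p24 protein Tmed3 at 0.31, both with knockdown above control in all libraries.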

How the data were processed

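Libraries came from SMART-Seq v4 cDNA, read as 150 nt pairs, per the labels' protocols. According to the submitters' processing notes, the tools were HISAT2 2.1.0, StringTie 1.3.3, SAMtools 1.3, Trimmomatic 0.36 and bcl2fastq 2.19, with genome mm10; their order is not stated. The annotation release and the strand setting were not given in the sources used here. The deposited FPKM values were made by the authors, and the unit was read from the values, whose columns sum to 317223 to 322496. Depth was read from the smallest increment of FPKM times length in genes with a single exon and transcript: 87.3% to 88.1% of 3152 to 3383 low values in each library were whole multiples of it to within 0.1, against 20.0% by chance for a fixed increment. Read counts could not be recovered for most genes, so count models were not used. Values of genes with several transcripts, or with near-copies, depend on how fragments were assigned.

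The filter kept genes whose mean was 1 FPKM or more. On log2(FPKM + 1), limma-trend was fitted (limma 3.58.1, R 4.3.3), two-sided, with a threshold of 0.05. The median standard error over all genes tested was 0.198. Tested on simulated data for the 10900 genes, it found 1.64% of 1.5-fold, 21.8% of 2-fold and 81.5% of 4-fold changes, and 5.23% of calls were false. The simulation changed 200 genes and drew normal noise with spreads from the fitted model itself. It did not model single libraries that stand apart, as for Srp14, so these shares may not hold for the measured data. Exons came from GENCODE M21 (GRCm38, the assembly of mm10), and rows of shared sequence were those with a common word of 75 bases. Promoters came from RefSeq. Python 3.11.15, numpy 2.4.6, pandas 2.3.3 and matplotlib 3.10.9 were used for summaries and plots.

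The 40 genes and all lists were chosen with earlier results of these data known. The rule for named genes took 6 genes always (Hspa5, Hsp90b1, Xbp1, Atf6, Ern1, Eif2ak3), genes at an unadjusted p under 0.05, genes whose groups do not overlap, the 2 with the lowest p per role, and the 2 with the lowest p per further list. Alternatives were another pseudocount, 2 filters, 2 normalizations, limma without the trend, a replicate block and leaving out each library. Sums with rows of shared sequence were added after seeing the data. They add whole rows, however small the shared part, and so are not corrected levels.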

Additional observations from a re-analysis of the deposited data

How the results depend on the processing

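Over all genes tested, 6 were called; 3 were called with a replicate block, 0 without the filter on low values (limma over 24969 genes, of which 1508 had an unadjusted p under 0.05), and 5 to 15 with 1 library left out. Of the 40 genes, 0 were called under each alternative other than leaving out knockdown replicate 2, where Srp14 and Tmed2 were (range 0 to 2). The count at an unadjusted p under 0.05, 2 with all libraries, was 5 with a replicate block and 3 to 8 with 1 library left out. Over all genes tested, 772 were at an unadjusted limma p under 0.05 with all libraries and 710 with the replicate block. The count over all genes rose when a knockdown library was left out and fell when a control was left out, whereas the count among the 40 genes rose each time. These fits leave 1 sample in a group, so no result about the 40 genes is drawn from their counts. Replicate numbers were not taken to pair the samples: across genes, the deviations of same-numbered libraries had a correlation of -0.02. The median difference of 0.01 was -0.015 with the filter at 5 FPKM, -0.019 with median ratio scaling, and 0.013 to 0.049 with 1 library left out. With 1 library left out, both groups were apart for 13 to 17 genes on the higher side and 11 to 14 on the lower side, since fewer libraries are compared. The background shares for groups that are apart were taken with all libraries and do not apply to these counts. No excess over other genes can therefore be read from them. In 51 named genes, 39 of 568 alternative values had another sign, in 20 genes. With quantile normalization these were Hspa5 (0.025), Calr (0.037), Ssr3 (0.0037), Sec61g (-0.023) and Srp72 (-0.016). With median ratio scaling they were Pdia3 (-0.0039), Pdia4 (-0.015), Sec61g (-0.019) and Srp72 (-0.017), and summed with rows of shared sequence Sec61g (-0.020). With 1 library left out the values ranged from -0.21 to 0.047 for Hspa5, -0.022 to 0.27 for Hyou1, -0.25 to 0.041 for Dnajb9, -0.084 to 0.031 for Manf, -0.069 to 0.038 for Calr, -0.0067 to 0.058 for Pdia3, -0.068 to 0.10 for Pdia4, -0.30 to 0.84 for Eif2ak3, -0.29 to 0.15 for Syvn1, -0.15 to 0.094 for Sec61a1, -0.032 to 0.30 for Sec61b, -0.14 to 0.16 for Sec61g, -0.19 to 0.088 for Sec62, -0.027 to 0.17 for Ssr1, -0.050 to 0.015 for Ssr3, -0.13 to 0.042 for Srp9, -0.12 to 0.087 for Srp19, -0.26 to 0.13 for Srp68, -0.11 to 0.13 for Srp72 and -0.027 to 0.59 for Stt3b. The cause of these moves was not tested. With 2 libraries per group, 95% intervals reached 0.484 to either side at the median over all genes tested, without adjustment for the number of genes. Some of the 40 genes had narrower intervals, as Hsp90b1 (-0.13 to 0.23), and some wider ones, as Srp14 (-2.29 to 0.33). At the median width smaller differences were mostly not detectable, and many larger ones would not be called either. In the simulated data, 21.8% of 2-fold changes were found.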

Other observations

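Knockdown replicate 2 was the lowest library for 10 of the 39 genes tested and the highest for 11, where it was lowest for 21.7% and highest for 32.9% of all genes. Among the 10 were Hspa5, Dnajb9, Dnajb11, Manf and Herpud1, named after their values were seen, while Hsp90b1, Hyou1, Calr, P4hb and Syvn1 were highest there. Against the control mean on the log2(FPKM + 1) scale, this library had -0.72 for Herpud1, -0.28 for Dnajb11, -0.25 for Dnajb9, -0.21 for Hspa5 and -0.08 for Manf. In knockdown replicate 1 the same genes had -0.09, -0.05, 0.04, 0.05 and 0.03. Ppp1r15a, a stress-induced phosphatase subunit that reverses the translation block of Eif2ak3, had 25.8 FPKM in knockdown replicate 2 and 57.0 to 59.8 in the other 3 libraries. Pmp22, a membrane glycoprotein gene, had 18.4 FPKM in knockdown replicate 1 and 42.3 to 46.8 elsewhere, and Srp14 and Tmed2 were low in that same library. Knockdown replicate 1 was the lowest library for 10 of the 39 genes and for 28.6% of all genes. It was the highest for 14 of the 39 and for 26.1% of all genes, and a link between these 3 genes was not tested.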
